A study of Mus musculus with 24 samples.

Results

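Ucp1, Dio2, Cidea, Elovl3, Otop1, Kcnk3, Fabp3 and Letmd1 are 8 effector genes of the brown adipocyte. Their proteins serve heat production, activate thyroid hormone, store, elongate or carry fatty acids, or form proton and potassium channels. The genes were taken as a named list from a table of 36144 genes. All 8 were among the 13129 genes that passed the filter on low counts, and each had reads in all 24 libraries.

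Polyadenylated RNA was sequenced from interscapular brown adipose tissue (iBAT), the heat-producing fat between the shoulder blades, with 1 library for each of 24 mice. The 4 groups of 6 mice were Th-Cre mice given DCZ, Th-Cre mice given saline, WT mice given DCZ and WT mice given saline. Every group held 3 males and 3 females aged 6 to 8 months, and tissue was taken 30 minutes after the animals received DCZ or saline. Th-Cre mice are labelled B6.129X1- Tht1(cre)Te/Kieg and carry Cre recombinase driven by tyrosine hydroxylase sequences, which are active where catecholamines are made, sympathetic neurons included. WT mice are labelled C57Bl/6J, and whether they were littermates of the Th-Cre mice is not given in the sources used here. DCZ is deschloroclozapine, a ligand of designer muscarinic receptors, and per the title of the series it was used to activate sympathetic neurons that project to iBAT. The sources used here do not give the receptor, its delivery, the route of DCZ or the RNA quality values.

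Brown adipocytes burn fatty acids in mitochondria whose inner membrane is made leaky to protons by UCP1, so that fuel energy is released as heat. Noradrenaline from sympathetic nerves starts this through adrenergic receptors and cyclic AMP, which frees fatty acids from lipid droplets and, over hours, raises transcription of Ucp1, Dio2 and Elovl3. Thyroid hormone made in the cell by DIO2 adds to that response.

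Ucp1 and Dio2 are the members best known as targets of cyclic AMP, so the bases just before their RefSeq start sites are shown as the context of the DCZ comparison. The sequences are from RefSeq on GRCm38.p6 and run from 160 bases to 1 base before the start, 5′ to 3′ on the gene's strand. The Ucp1 stretch is chr8:83290188-83290347 (plus strand) and the Dio2 stretch is chr12:90739039-90739198 (minus strand). Capitals mark TGACGTCA, the palindrome bound by CREB-family factors, or where that is absent its core TGACG.
Ucp1: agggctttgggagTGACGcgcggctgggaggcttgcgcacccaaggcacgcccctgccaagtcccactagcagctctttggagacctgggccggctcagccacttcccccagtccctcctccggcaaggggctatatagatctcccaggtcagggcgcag
Dio2: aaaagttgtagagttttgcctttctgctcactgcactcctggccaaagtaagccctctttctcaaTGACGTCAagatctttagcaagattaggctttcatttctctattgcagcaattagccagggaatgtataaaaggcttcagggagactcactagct
The Dio2 stretch held TGACGTCA with its first base at -95 and TATAAA at -30. The Ucp1 stretch held TGACG at -147 and AGGTCA, the core hexamer recognised by many nuclear receptors, at -14, and no TGACGTCA or TATAAA. Over the 300-base windows of 32851 RefSeq promoters, searched on both strands, 1.79% held TGACGTCA, 20.8% TGACG (which TGACGTCA contains), 13.6% TATAAA and 16.3% AGGTCA. The promoter table had an entry for 5 of the 8 members. Among the others with an entry, Fabp3 held TGACG at -149 and Letmd1 held AGGTCA at -201, while Otop1 held none of these motifs.

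Libraries held 11933532 to 22865592 estimated counts, of which mitochondrially encoded genes took 31.4 to 42.3%. The 5 general adipocyte markers (Adipoq, Plin1, Lipe, Cidec and Pparg) summed to 3135 CPM or more in every library, where CPM is the counts-per-million value after TMM scaling of the library sizes. The 6 brown adipocyte markers other than the members (Cox7a1, Cox8b, Zic1, Lhx8, Ebf2 and Prdm16) summed to 677 CPM or more, which went with the labelled tissue. Cox8b made up a large part of this sum, so it says little about Zic1, Lhx8, Ebf2 or Prdm16. The 5 sympathetic neuron markers (Th, Dbh, Slc6a2, Snap25 and Npy) summed to 0.404 CPM or less. Skeletal muscle transcripts stood apart in 6 libraries, with 13 muscle markers at a mean log2 CPM of more than 1: Th-Cre DCZ DN2075 and DN2091, Th-Cre saline DN2086, DN2087 and DN2094, and WT saline WT12. The 13 markers summed to 47.0 CPM or more in every library, Th-Cre saline DN2201 included, where their mean log2 CPM was -1.83. In libraries far below that mark a few markers thus made up the sum, which says little about muscle there. Results for the 8 genes that rest on these libraries are given with and without them, as are the calls on listed pathway genes. All Th-Cre libraries have higher library numbers than all WT libraries, so genotype and library order cannot be told apart.

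The members covered a wide range of levels. Ucp1 alone took 0.166 to 0.676% of a library's counts, and the 8 members together 0.460 to 1.08%. Per kilobase of exon, Ucp1 was the most abundant, with 2518 CPM per kb ± 759 (SD, n = 24), and Cidea followed with 1375 ± 140. These neighbours overlapped in range, and Ucp1 lay above Cidea in 22 of 24 libraries. Fabp3 had 747 CPM per kb ± 173 and lay below Cidea in all 24 libraries. Letmd1 (117 ± 12.5 CPM per kb) and Kcnk3 (97.0 ± 15.6) came next, with Letmd1 above Kcnk3 in 22 libraries. Otop1 (57.9 ± 9.19 CPM per kb) and Elovl3 (57.4 ± 23.3) did not differ beyond their spread, with Otop1 higher in 14 of 24 libraries. Dio2 was lowest at 20.7 CPM per kb ± 7.51 and lay below Elovl3 in all 24 libraries. The order was the same when the longest coding transcript was used as the length.

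Setting DCZ against saline in Th-Cre mice asks whether activating the neurons moved these transcripts, and the same contrast in WT mice is the control for the ligand without Cre. No member passed the test in either genotype at 30 minutes. With quasi-likelihood tests in edgeR and Benjamini-Hochberg adjustment over all 13129 genes, 0 of 8 members changed in Th-Cre mice, where 0.0229% of all genes did. There 1 member had an unadjusted p under 0.05, as had 745 of the 13129 genes. In WT mice 0 of 8 changed, against 0.00762% of all genes. Again 1 member had an unadjusted p under 0.05, as had 1137 of the 13129 genes. For the interaction, the DCZ difference in Th-Cre mice minus that in WT mice, 0 of 8 changed, against 0.00762% of all genes. In it 2 members had an unadjusted p under 0.05, as had 980 of the 13129 genes. DESeq2 also called 0 members in all 3 comparisons. Bulk tissue cannot tell fewer cells of a type from less RNA in each cell, here or in the comparisons further on.

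Ucp1, the proton leak protein itself (chromosome 8, 83290352 to 83298452 on GRCm38, plus strand), had 1752, 2683 and 3828 CPM as lowest, median and highest in Th-Cre DCZ mice, against 2550, 3735 and 3981 CPM in Th-Cre saline mice. In WT mice it had 4292, 5358 and 6533 CPM after DCZ, against 3843, 4641 and 6159 CPM after saline. The groups overlapped in both genotypes, although 3 of 6 Th-Cre DCZ mice lay below every Th-Cre saline mouse and 5 of 6 WT DCZ mice lay above the WT saline mean. The log2 fold change with DCZ was -0.34 ± 0.126 (SE; 95% interval -0.59 to -0.08; unadjusted p = 0.0134, adjusted p = 0.696 by edgeR) in Th-Cre mice. In WT mice it was 0.18 ± 0.125 (interval -0.08 to 0.44, adjusted p = 0.662 by edgeR). The interaction was -0.52 ± 0.178 (interval -0.88 to -0.15, unadjusted p = 0.00761, adjusted p = 0.607 by edgeR).

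Summed muscle markers ran from 48.1 to 690 CPM in Th-Cre DCZ and from 47.0 to 1548 CPM in Th-Cre saline libraries, and their part in the Ucp1 values was not tested. Without the 6 libraries with muscle transcripts the Ucp1 value was -0.42 in Th-Cre mice (adjusted p = 0.733 by edgeR). Among WT libraries numbers 1 to 6 hold 5 DCZ mice and numbers 7 to 12 hold 5 saline mice, so treatment and library order largely coincide there. The lone saline library in 1 to 6 and the lone DCZ library in 7 to 12 are both female. Among females alone, 3 mice in each range, DCZ minus saline in mean log2 CPM of Ucp1 was 0.13 in library numbers 1 to 6 and 0.28 in 7 to 12, with a single library on one side.

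Letmd1, a mitochondrial inner membrane protein that mice need for heat production in brown fat (chromosome 15, 100469023 to 100479164, plus strand), had 511, 567 and 639 CPM (lowest, median, highest) in Th-Cre DCZ mice, against 539, 596 and 696 CPM in Th-Cre saline mice. It had 509, 589 and 629 CPM in WT DCZ mice, against 471, 497 and 623 CPM in WT saline mice. The groups overlapped, and in WT mice 3 of 6 DCZ values lay above all 6 saline values. Letmd1 had a log2 fold change of -0.08 ± 0.070 in Th-Cre mice (adjusted p = 0.99 by edgeR) and 0.18 ± 0.070 in WT mice (unadjusted p = 0.016, adjusted p = 0.527). Its interaction of -0.26 ± 0.099 (unadjusted p = 0.0163, adjusted p = 0.607) and that of Ucp1 were the pair of members with an unadjusted p under 0.05. Among WT females alone DCZ minus saline in mean log2 CPM of Letmd1 was -0.08 in library numbers 1 to 6. It was 0.35 in 7 to 12, again with a single library on one side. Otop1 (-0.04 and 0.42), Kcnk3 (-0.18 and 0.14) and Cidea (-0.01 and 0.02) also changed sign between these ranges. Ucp1, Dio2, Elovl3 and Fabp3 were positive in both.

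Dio2, the deiodinase that turns thyroxine into active thyroid hormone inside the cell (chromosome 12, 90724552 to 90738438, minus strand), ranged from 70.8 through a median of 116 to 246 CPM in Th-Cre DCZ mice, against 65.5, 111 and 189 CPM in Th-Cre saline mice. In WT mice it ranged from 101 through 122 to 165 CPM after DCZ, against 64.9, 111 and 116 CPM after saline. Spread was wide within groups, and both pairs of groups overlapped. Dio2 had a log2 fold change of 0.22 ± 0.215 (interval -0.22 to 0.66, adjusted p = 0.991 by edgeR) in Th-Cre and 0.34 ± 0.215 (interval -0.11 to 0.78, adjusted p = 0.633) in WT mice.

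Cidea, a lipid droplet protein that helps droplets grow (chromosome 18, 67343604 to 67367785, plus strand), was the steadiest member with DCZ. It had 1183, 1477 and 1688 CPM in Th-Cre DCZ mice, against 1303, 1457 and 1636 CPM in Th-Cre saline mice, and 1431, 1561 and 1806 CPM in WT DCZ mice, against 1464, 1621 and 1826 CPM in WT saline mice. Its log2 fold change was 0.00 ± 0.064 in Th-Cre mice with an interval of -0.13 to 0.13, and -0.03 ± 0.064 in WT mice with an interval of -0.17 to 0.10. These intervals were the narrowest of the 8 in both genotypes.

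Elovl3, which elongates saturated fatty acids to very long chains (chromosome 19, 46131897 to 46135694, plus strand), had 77.5, 128 and 174 CPM in Th-Cre DCZ mice, against 85.7, 115 and 129 CPM in Th-Cre saline mice. In WT mice the values were 43.0, 114 and 229 CPM after DCZ, against 43.8, 87.6 and 133 CPM after saline. The groups overlapped, and in each genotype 3 DCZ values, all from females, lay above all saline values while 1, from a male, lay below them all. Females averaged 160 CPM after DCZ and 119 after saline in Th-Cre mice, and 182 and 122 in WT mice. Males averaged 97.5 and 111 CPM in Th-Cre mice, and 62.1 and 53.9 in WT mice (n = 3 each). Neither sex alone gave a call, and whether the DCZ difference varies with sex was not tested. With DCZ its log2 fold change was 0.08 ± 0.213 in Th-Cre (adjusted p = 0.999 by edgeR) and 0.42 ± 0.214 in WT mice (interval -0.02 to 0.86, adjusted p = 0.585). Among WT females alone DCZ minus saline in mean log2 CPM of Elovl3 was 0.34 in library numbers 1 to 6 and 0.93 in 7 to 12, with a single library on one side of each.

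Fabp3, the heart-type carrier of fatty acids in the cytosol (chromosome 4, 130308595 to 130315463, plus strand), had 338, 459 and 774 CPM in Th-Cre DCZ mice, against 455, 502 and 692 CPM in Th-Cre saline mice. WT mice had 591, 731 and 855 CPM after DCZ, against 605, 705 and 776 CPM after saline. Its lowest value of all came from DN2075, a library with muscle transcripts, and the groups overlapped. Its log2 fold change was -0.08 ± 0.158 in Th-Cre (adjusted p = 0.999 by edgeR) and 0.05 ± 0.158 in WT mice (adjusted p = 0.947).

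The channel genes Otop1 and Kcnk3 also had groups that overlapped under DCZ and saline. Otop1, a proton-selective ion channel (chromosome 5, 38275972 to 38304217, plus strand), had 186, 219 and 233 CPM in Th-Cre DCZ mice, against 184, 216 and 247 CPM in Th-Cre saline mice. Its WT values were 154, 205 and 233 CPM after DCZ, against 144, 161 and 230 CPM after saline. Its log2 fold change was -0.03 ± 0.101 in Th-Cre mice and 0.20 ± 0.101 in WT mice (adjusted p = 0.999 and 0.587 by edgeR). Kcnk3, a background potassium channel that holds the membrane potential down (chromosome 5, 30588170 to 30625271, plus strand), had 335, 404 and 471 CPM in Th-Cre DCZ mice, against 308, 401 and 477 CPM in Th-Cre saline mice. In WT mice it had 334, 386 and 427 CPM after DCZ, against 265, 361 and 481 CPM after saline. Its log2 fold change was -0.01 ± 0.116 in Th-Cre and 0.11 ± 0.116 in WT mice (adjusted p = 0.999 and 0.781 by edgeR), and no DCZ mouse of either genotype lay outside the range of its saline group.

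**Figure D1:**
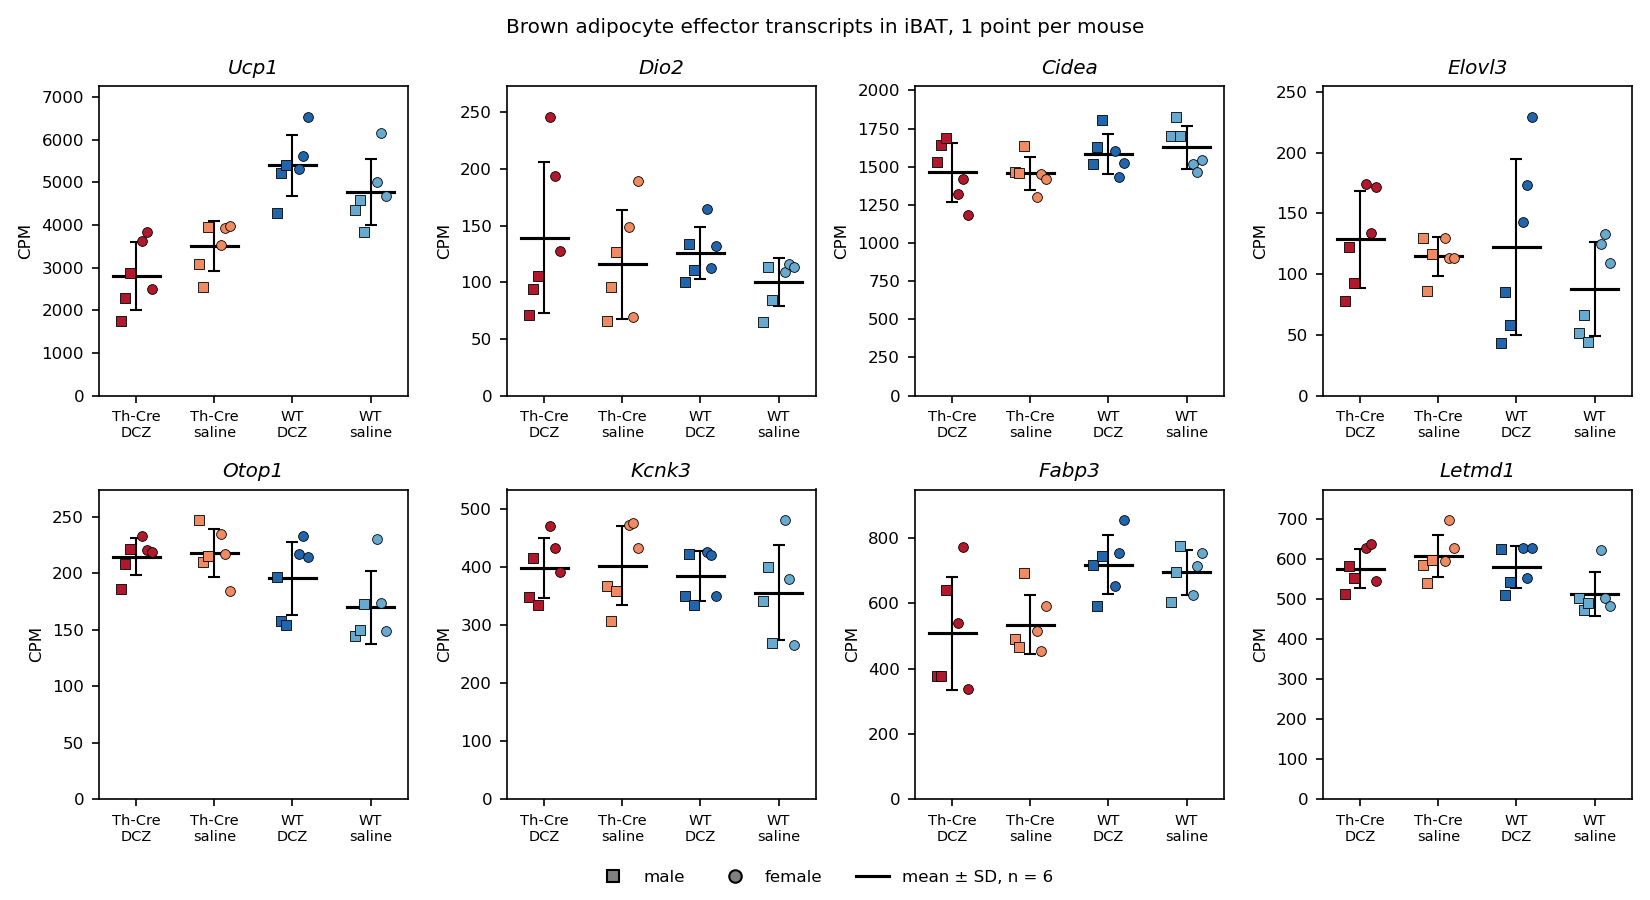
Counts-per-million values (CPM, y axis from 0) of the 8 members in Th-Cre DCZ, Th-Cre saline, WT DCZ and WT saline mice, 1 point per mouse (squares male, circles female), with bars for the mean ± SD (n = 6). Ucp1 ran from 1752 to 3828 CPM in Th-Cre DCZ mice and from 4292 to 6533 CPM in WT DCZ mice.

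**Figure D2:**
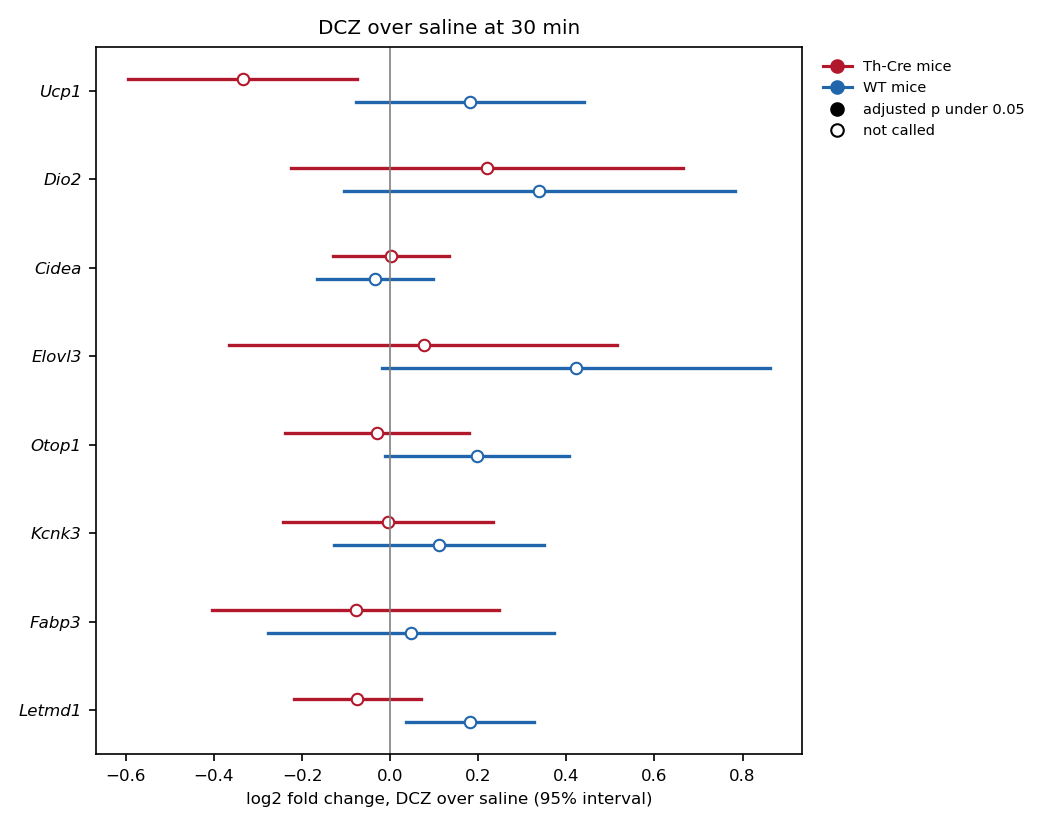
Log2 fold change of DCZ over saline (x axis) for each member with its 95% interval from edgeR, in Th-Cre mice (red) and WT mice (blue). All markers are open because 0 members passed an adjusted p of 0.05, and Ucp1 stands at -0.34 in Th-Cre mice against 0.18 in WT mice.

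The comparison of Th-Cre with WT mice asks what separated the genotypes under each treatment. Ucp1 was lower in Th-Cre mice under both treatments, Fabp3 was lower under DCZ, and Otop1 and Letmd1 were higher under saline. With quasi-likelihood tests in edgeR and Benjamini-Hochberg adjustment, 3 of 8 members changed under saline, 2 higher and 1 lower, where 24.9% of all genes did. Under DCZ 2 of 8 changed, both lower, against 13.8% of all genes. Over the mean of both treatments 4 of 8 changed, 1 higher and 3 lower, against 38.0% of all genes. The median log2 fold change over the 8 members was 0.18 under saline, 0.02 under DCZ and 0.11 over both, against -0.01, 0.00 and -0.005 over all genes. The comparisons under saline and DCZ use the same mice as the DCZ comparisons above, and the mean uses both.

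Ucp1 averaged 2808 CPM ± 799 in Th-Cre DCZ mice and 5395 ± 721 in WT DCZ mice (SD, n = 6 each). All 6 Th-Cre values lay below all 6 WT values. The share of all genes whose groups do not overlap was not counted, here or in the comparisons further on. The fitted level was 1.94 times lower in Th-Cre mice (log2 fold change -0.96 ± 0.127 SE, adjusted p = 1.42e-04 by edgeR). Under saline Ucp1 averaged 3505 CPM ± 583 in Th-Cre and 4772 ± 782 in WT mice, with 3 of 6 Th-Cre values below every WT value. There the log2 fold change was -0.44 ± 0.126 (adjusted p = 0.0136 by edgeR), or 1.36 times lower. Over both treatments it was -0.70 ± 0.089 (adjusted p = 1.49e-05 by edgeR), and all 12 Th-Cre mice lay below the WT mean. The difference between the values under DCZ and saline is the interaction above, which did not pass.

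Without the 6 libraries with muscle transcripts Ucp1 stood at -0.95 under DCZ (adjusted p = 0.00208 by edgeR) and at -0.39 under saline (adjusted p = 0.146), with 109 genes called in all under saline. In males alone Ucp1 stood at -1.10 under DCZ (adjusted p = 0.0116) and in females alone at -0.82 (adjusted p = 0.0944), 3 mice against 3. Under saline it stood at -0.42 in males alone (adjusted p = 0.169) and -0.47 in females alone (adjusted p = 0.148). Marker lists of cell types also held genes that changed with genotype. The 6 brown adipocyte markers summed to 677 to 972 CPM in Th-Cre DCZ and 684 to 988 CPM in Th-Cre saline libraries, against 1033 to 1491 CPM in WT DCZ and 1078 to 1445 CPM in WT saline libraries. This rested on Cox8b and Cox7a1, respiratory chain subunits, which fell under both treatments, while Zic1, Lhx8, Ebf2 and Prdm16 passed in neither. The 6 endothelial markers had median sums of 525 and 516 CPM in Th-Cre DCZ and saline libraries, against 636 and 721 CPM in WT DCZ and saline libraries. Of these markers 5 fell under saline and 2 under DCZ. The general adipocyte markers had medians of 4328 and 3967 CPM in Th-Cre DCZ and saline libraries, against 3890 and 3545 CPM in WT DCZ and saline libraries. Of those 5 markers 2 rose under saline and 1 under DCZ. Of 5 macrophage markers 0 changed under each treatment and 2, Adgre1 and Mrc1, rose over both, with summed medians of 67.9 and 64.2 CPM in Th-Cre DCZ and saline libraries, against 44.0 and 48.5 CPM in WT DCZ and saline libraries. Of 4 Schwann cell markers 1 fell under DCZ and 0 under saline. The part of these in the Ucp1 difference was not tested.

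Letmd1 averaged 607 CPM ± 52.2 in Th-Cre saline mice and 512 ± 55.8 in WT saline mice (SD, n = 6 each), and all 6 Th-Cre values lay above the WT mean. Its log2 fold change under saline was 0.24 ± 0.070 (adjusted p = 0.0147 by edgeR). Under DCZ it averaged 576 CPM ± 49.8 in Th-Cre and 581 ± 52.3 in WT mice, and the log2 fold change was -0.01 ± 0.070 (interval -0.16 to 0.13). Over both treatments it was 0.12 ± 0.050 (adjusted p = 0.0688), and it passed without WT DCZ WT1 (adjusted p = 0.0284), WT saline WT2 (0.0184) or Th-Cre DCZ DN2075 (0.0449), and by DESeq2 (0.0388). Without the libraries with muscle transcripts the saline value was 0.21 (adjusted p = 0.167).

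Otop1 averaged 218 CPM ± 21.5 in Th-Cre saline mice and 170 ± 32.3 in WT saline mice, with every Th-Cre value above the WT mean. Otop1 rose, with a log2 fold change of 0.37 ± 0.101 under saline (adjusted p = 0.0109 by edgeR). Under DCZ, with 215 CPM ± 16.3 in Th-Cre and 195 ± 32.7 in WT mice, it had a log2 fold change of 0.14 ± 0.101 (adjusted p = 0.357). Over both treatments it was 0.26 ± 0.072 (adjusted p = 0.00712), and all 12 Th-Cre mice lay above the WT mean. Without the libraries with muscle transcripts it stood at 0.46 under saline (adjusted p = 0.0533) and 0.29 over both (adjusted p = 0.0139).

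Fabp3 averaged 508 CPM ± 174 in Th-Cre DCZ mice and 719 ± 90.7 in WT DCZ mice. Of the 6 Th-Cre values 4 lay below every WT value and 1 lay above the WT mean. This gave -0.50 ± 0.158 on the log2 scale (adjusted p = 0.0366 by edgeR). The call under DCZ rested on single libraries, since it was lost without WT DCZ WT5 (adjusted p = 0.0873), WT6 (0.0605) or WT10 (0.0872) and without Th-Cre DCZ DN2072 (0.1), DN2075 (0.0896) or DN2097 (0.0969), at log2 fold changes of -0.49 to -0.40. Under saline, with 535 CPM ± 91.3 in Th-Cre and 695 ± 68.2 in WT mice, 5 of 6 Th-Cre values lay below every WT value, at a log2 fold change of -0.38 ± 0.158 (adjusted p = 0.0802). Without Th-Cre saline DN2089 that became -0.48 (adjusted p = 0.0357). Over both treatments Fabp3 fell by 0.44 ± 0.112 on the log2 scale (adjusted p = 0.0037 by edgeR), and it kept an adjusted p of 0.00868 or less without any single library. That call was lost in females alone (adjusted p = 0.0986). The Fabp3 call under DCZ was lost in males alone and in females alone. Muscle also expresses Fabp3. Summed muscle markers had medians of 59.1 and 113 CPM in Th-Cre DCZ and saline libraries, against 60.5 and 79.5 CPM in WT DCZ and saline libraries, and 3 of 13 rose under DCZ, 0 under saline and 10 over both treatments. Taken singly, the 13 markers had a median log2 fold change of 4.47 under DCZ and 2.53 under saline, with 12 positive under each. Their part in the Fabp3 difference was not tested. Without the libraries with muscle transcripts Fabp3 stood at -0.50 under DCZ (adjusted p = 0.0862) and at -0.37 over both treatments (adjusted p = 0.0387).

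Cidea passed over both treatments, with 1460 CPM ± 150 in Th-Cre and 1605 ± 130 in WT mice (SD, n = 12 each). The log2 fold change was -0.14 ± 0.045 (adjusted p = 0.0183 by edgeR), and 9 of 12 Th-Cre mice lay below the WT mean. The call was lost without the libraries with muscle transcripts (adjusted p = 0.0827), without the low-count filter (0.0955) and without the term for sex (0.074). Each sex alone gave no call either (adjusted p = 0.278 in males and 0.145 in females). Over these 5 alternatives its log2 fold change lay between -0.17 and -0.11. Elovl3, with 122 CPM ± 29.8 in Th-Cre and 105 ± 58.2 in WT mice, had a log2 fold change of 0.37 ± 0.153 over both treatments (adjusted p = 0.0612) and of 0.54 ± 0.216 under saline (adjusted p = 0.0684). Without the libraries with muscle transcripts it was 0.53 over both (adjusted p = 0.043). Over both treatments Elovl3 also passed without WT DCZ WT10 (adjusted p = 0.0187), Th-Cre DCZ DN2207 (0.0431), or Th-Cre saline DN2201 (0.0486), DN2094 (0.0359) or DN2086 (0.0346), and under saline without WT DCZ WT1 (0.0461) or Th-Cre saline DN2094 (0.0423) or DN2086 (0.04). Dio2 and Kcnk3 passed under neither treatment, with log2 fold changes over both of 0.14 ± 0.152 for Dio2 (adjusted p = 0.509) and 0.11 ± 0.082 for Kcnk3 (adjusted p = 0.303).

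**Figure D3:**
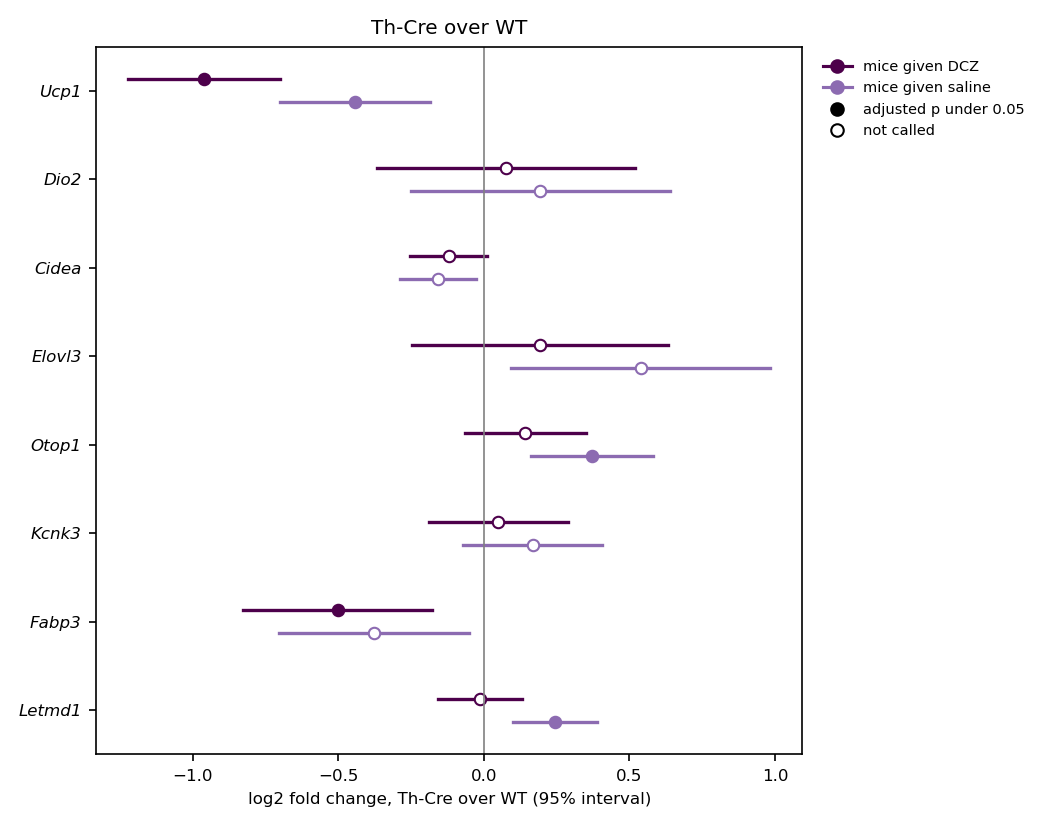
Log2 fold change of Th-Cre over WT (x axis) for each member with its 95% interval from edgeR, among mice given DCZ (dark) and mice given saline (light). Filled markers have an adjusted p under 0.05: Ucp1 (-0.96 and -0.44) under both treatments, Fabp3 (-0.50) under DCZ, and Otop1 (0.37) and Letmd1 (0.24) under saline.

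Males had lower Ucp1, Dio2 and Elovl3 and higher Cidea than females over all groups, by the term for sex in the edgeR model of all 4 groups. This made 4 of 8 members, 1 higher and 3 lower in males, where 8.07% of all genes changed. The median log2 fold change over the 8 members was -0.20, and over all genes it was 0.00.

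Elovl3 showed the widest sex difference. It averaged 81.0 CPM ± 30.1 in males and 146 ± 35.3 in females (SD, n = 12 each), and 9 of 12 males lay below every female. In the model the value was -0.89 ± 0.154 (adjusted p = 8.85e-04 by edgeR). The sex difference in each genotype was examined with a fit of 1 mean for each sex in each group that was added after these values were seen. In Th-Cre mice males had 77.5, 105 and 129 CPM (lowest, median, highest) and females 113, 131 and 174 CPM. In WT mice males had 43.0, 55.0 and 85.1 CPM and females 109, 138 and 229 CPM, with no overlap. In WT mice the level was 2.58 times lower in males (-1.37 ± 0.160, adjusted p = 3.93e-05 by edgeR), and in Th-Cre mice the log2 fold change was -0.41 ± 0.156 (adjusted p = 0.189).

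In that fit 1 of 8 members, Elovl3, changed with sex in WT mice, where 2.50% of all genes did. In Th-Cre mice 0 of 8 changed, against 1.61% of all genes. There 5 members had an unadjusted p under 0.05, as had 2057 of the 13129 genes. The difference between the genotypes in the sex effect was called for 0 of 8 members by edgeR, against 0% of all genes (0 of 13129, with 900 at an unadjusted p under 0.05). For Elovl3 that difference was 0.96 ± 0.222 (interval 0.50 to 1.42, unadjusted p = 2.97e-04, adjusted p = 0.354), and for Otop1 it was 0.29 ± 0.134 (unadjusted p = 0.041, adjusted p = 0.713). With no low-count filter the Elovl3 value was 0.97 (adjusted p = 0.0341), and over the fits that leave out 1 library its adjusted p ran from 0.169 to 0.593.

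Seen the other way, Th-Cre males against WT males gave 3 changed members, Ucp1 lower and Elovl3 and Otop1 higher, against 24.9% of all genes. Among females 1 member changed, Ucp1, against 11.2% of all genes. Elovl3 averaged 104 CPM ± 21.5 in Th-Cre males and 58.0 ± 15.9 in WT males (SD, n = 6 each; log2 fold change 0.84 ± 0.158, adjusted p = 0.00167 by edgeR), with 5 of 6 Th-Cre males above every WT male. In females it averaged 139 CPM ± 27.4 in Th-Cre and 152 ± 43.6 in WT mice (-0.11 ± 0.156, adjusted p = 0.661). Otop1 averaged 215 CPM ± 19.9 in Th-Cre males and 162 ± 19.2 in WT males (0.40 ± 0.095, adjusted p = 0.00565 by edgeR), against 218 ± 18.2 in Th-Cre females and 203 ± 34.1 in WT females (0.11 ± 0.095, adjusted p = 0.454). Ucp1 averaged 2748 CPM ± 750 in Th-Cre males and 4613 ± 589 in WT males (-0.76 ± 0.131, adjusted p = 0.00124). In females Ucp1 averaged 3564 CPM ± 555 in Th-Cre and 5554 ± 699 in WT mice, groups that did not overlap (-0.64 ± 0.130, adjusted p = 0.00773). Without the libraries with muscle transcripts the female Ucp1 value was also -0.64 (adjusted p = 0.0836). Fabp3 stood at -0.44 ± 0.165 in males (adjusted p = 0.0525) and -0.44 ± 0.165 in females (adjusted p = 0.083). The male Fabp3 value passed without the libraries with muscle transcripts, with no low-count filter, and without any 1 of 4 single libraries. The female Fabp3 value passed without Th-Cre DCZ DN2207 (adjusted p = 0.0282).

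Dio2 averaged 97.1 CPM ± 22.6 in males and 144 ± 48.0 in females, and all 12 males lay below the female mean. The log2 fold change of -0.54 ± 0.153 (adjusted p = 0.0288 by edgeR) was not called without Th-Cre DCZ DN2072 (adjusted p = 0.0544) or DN2205 (0.0508) or Th-Cre saline DN2086 (0.0572). Within Th-Cre mice Dio2 averaged 92.9 CPM ± 22.5 in males and 162 ± 61.3 in females (-0.79 ± 0.209, adjusted p = 0.0551), and within WT mice 101 ± 24.1 in males and 125 ± 21.3 in females (-0.31 ± 0.208, adjusted p = 0.5). The Th-Cre value passed without the libraries with muscle transcripts (adjusted p = 0.0412), without Th-Cre DCZ DN2075 (0.0229), Th-Cre saline DN2094 (0.0109) or DN2089 (0.0328), and with no low-count filter (0.00893).

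Ucp1 averaged 3681 CPM ± 1167 in males and 4559 ± 1200 in females, a spread that holds the genotype difference too. With the groups fitted, the log2 fold change was -0.33 ± 0.089 (adjusted p = 0.0223 by edgeR). Within genotypes it was -0.39 ± 0.130 in Th-Cre (adjusted p = 0.125) and -0.27 ± 0.130 in WT mice (adjusted p = 0.303). The Th-Cre value passed without Th-Cre DCZ DN2075 (adjusted p = 0.0408).

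Cidea was the single member that was higher in males, at 1634 CPM ± 121 in males and 1431 ± 117 in females. All 12 males lay above the female mean, and 8 of 12 lay above every female. The log2 fold change was 0.19 ± 0.045 (adjusted p = 0.00982 by edgeR), with 0.22 ± 0.065 in Th-Cre mice (adjusted p = 0.0846), where the sexes did not overlap, and 0.17 ± 0.065 in WT mice (adjusted p = 0.194).

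The other 4 members had negative values that did not pass over all groups. Kcnk3 averaged 354 CPM ± 43.8 in males and 417 ± 63.1 in females (-0.23 ± 0.082, adjusted p = 0.0813), and 11 of 12 males lay below the female mean. It passed without WT DCZ WT3 (adjusted p = 0.0466), WT saline WT9 (0.0458) or WT12 (0.0171). Letmd1 stood at -0.13 ± 0.050 (adjusted p = 0.0995), Otop1 at -0.17 ± 0.072 (adjusted p = 0.151) and Fabp3 at -0.08 ± 0.112 (adjusted p = 0.733). In WT mice Otop1 stood at -0.32 ± 0.095 (adjusted p = 0.0815) and passed without WT DCZ WT1 (adjusted p = 0.0433) or WT saline WT12 (0.0235). Otop1 also passed there without the libraries with muscle transcripts (adjusted p = 0.0427).

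Other cell markers differed with sex as well. Of 13 muscle markers 8 fell in males, with sums of 49.5 to 167 CPM in males against 47.0 to 1548 CPM in females, and 4 of the 6 libraries with muscle transcripts are female. Of 8 white adipocyte markers 4 were tested and 2 fell, with sums of 27.6 to 53.2 CPM in males against 42.4 to 105 CPM in females. Of 5 fibroblast markers 1 rose, with sums of 202 to 509 CPM in males against 171 to 324 CPM in females. Their part in the sex differences was not tested. Without the libraries with muscle transcripts the log2 fold changes over all groups were -0.40 for Ucp1, -0.61 for Dio2, 0.19 for Cidea and -1.05 for Elovl3, each with an adjusted p of 0.0469 or less, and Otop1 passed too, at -0.29 (adjusted p = 0.0251).

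**Figure D4:**
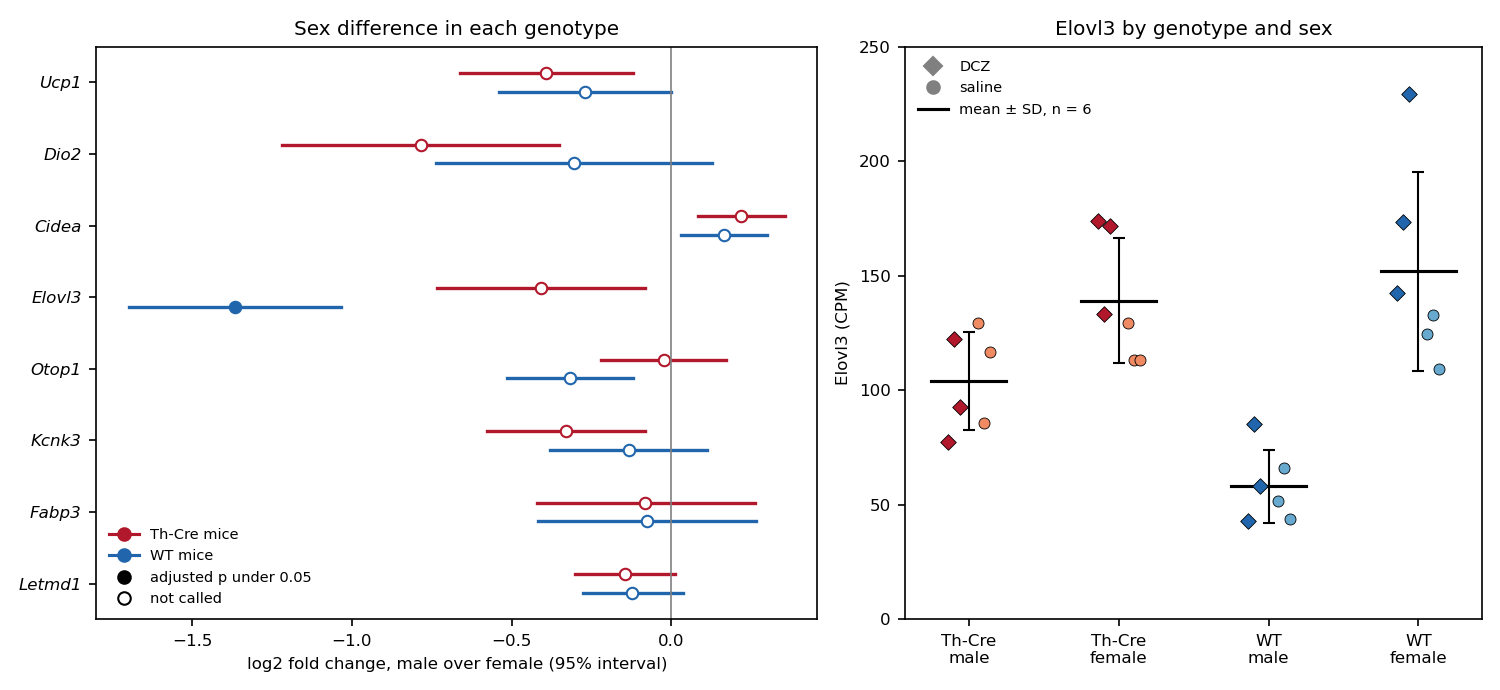
Left, log2 fold change of male over female (x axis) with its 95% interval from edgeR for each member in Th-Cre mice (red) and WT mice (blue), filled where the adjusted p is under 0.05. Right, CPM of Elovl3 in each mouse by genotype and sex with the mean ± SD (n = 6), where WT males (43.0 to 85.1 CPM) lie below all WT females (109 to 229 CPM).

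Other genes of the same pathways were taken from 7 lists of 102 genes, of which 81 were tested by edgeR with Benjamini-Hochberg adjustment over all genes. With DCZ 0 of the 81 changed in Th-Cre mice, 0 in WT mice and 0 in the interaction, as for the members. Between genotypes 15 rose and 7 fell in Th-Cre mice under saline (27.2%, against 24.9% of all genes, with a median log2 fold change of 0.09 against -0.01 over all genes). Under DCZ 12 rose and 8 fell (24.7%, against 13.8% of all genes, median 0.04 against 0.00). With sex 2 rose and 10 fell in males (14.8%, against 8.07% of all genes, median -0.05 against 0.00).

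Many of these calls were lost without the 6 libraries with muscle transcripts, a setting applied to the pathway genes after seeing the data. Under saline 3 of the 22 were still called, Kcnk2, Esrrb and Cox8b. In the remaining libraries 3.7% of the 81 genes were called under saline, against 0.813% of all genes. Under DCZ 10 of the 20 were still called, Ncoa1, Ncor1, Plin4, Hacd1, Kcnk2, Ppara, Irf4, Cox7a1, Cox8b and Gk. There 12.3% of the 81 genes were called, against 3.99% of all genes. With sex 9 of the 12 were still called, all but Elovl4, Fabp4 and Irf4. For sex 13.6% of the 81 genes were called in those libraries, against 6.23% of all genes. All 22, 20 and 12 kept the sign of their log2 fold change. The values given for pathway genes in the following are from all 24 libraries.

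Of the 9 relatives of Ucp1 and Letmd1 in the inner membrane, 0 changed with genotype under saline, 1 rose and 1 fell under DCZ. Slc25a30, a mitochondrial carrier, was the one that rose (0.56 ± 0.141, adjusted p = 0.013 by edgeR). Ucp2, a relative whose proton leak is disputed, averaged 28.8 CPM ± 4.95 in Th-Cre DCZ, 24.3 ± 2.83 in Th-Cre saline, 31.0 ± 10.6 in WT DCZ and 29.2 ± 5.30 in WT saline mice. Ucp3, found mainly in muscle and brown fat, averaged 173 CPM ± 31.2, 168 ± 13.5, 197 ± 22.4 and 166 ± 16.3 in Th-Cre DCZ, Th-Cre saline, WT DCZ and WT saline mice. Over both treatments the genotype values were -0.18 ± 0.108 for Ucp2 (adjusted p = 0.189) and -0.09 ± 0.070 for Ucp3 (adjusted p = 0.347). Letm1, the mitochondrial ion exchanger that gives Letmd1 its name, fell in Th-Cre mice under DCZ by 0.24 ± 0.069 on the log2 scale (adjusted p = 0.0225) and was lower in males (-0.28 ± 0.049, adjusted p = 9.46e-04).

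Among 15 genes around thyroid hormone, 13 were tested, and 3 rose and 1 fell in Th-Cre mice under saline while 3 rose under DCZ. Me1, a lipogenic enzyme driven by thyroid hormone, rose under both treatments (0.90 ± 0.295 under saline, adjusted p = 0.0287, and 1.07 ± 0.298 under DCZ, adjusted p = 0.0205). Ncoa1, a coactivator of nuclear receptors, rose by 0.44 ± 0.101 under saline (adjusted p = 0.00426) and by 0.41 ± 0.100 under DCZ (adjusted p = 0.0117). Wsb1, part of the ubiquitin ligase that marks DIO2 for destruction, fell by 0.54 ± 0.143 on the log2 scale under saline (adjusted p = 0.00915). Of the other deiodinases, Dio1 had 0 reads and Dio3 14 reads over all libraries.

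Of 14 tested genes of lipid droplets and the CIDE family, 4 rose in Th-Cre mice under saline, and 2 rose and 1 fell under DCZ. Plin4, a droplet coat protein, rose by 0.41 ± 0.082 under saline (adjusted p = 0.00219) and 0.32 ± 0.082 under DCZ (adjusted p = 0.0128), and the hormone-sensitive lipase Lipe by 0.36 ± 0.098 and 0.33 ± 0.098 (adjusted p = 0.0102 and 0.0306). Cidec, the closest relative of Cidea in adipocytes, had a log2 fold change of -0.02 ± 0.074 over both treatments (adjusted p = 0.831). Of 10 tested elongation genes 2 rose and 2 fell under saline. Elovl6, which elongates palmitate, rose under both treatments, with 817 CPM ± 177 in Th-Cre DCZ and 494 ± 148 in WT DCZ mice (0.75 ± 0.190, adjusted p = 0.0127), and 838 ± 164 in Th-Cre saline and 475 ± 146 in WT saline mice (0.83 ± 0.189, adjusted p = 0.00398). Elovl1, which elongates saturated and monounsaturated chains, fell by 0.46 ± 0.136 on the log2 scale under saline (adjusted p = 0.0158).

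Of 15 channel relatives 4 were tested, and Otop2 and Otop3 had 1 and 0 reads over all libraries. Kcnk2, another background potassium channel, rose in Th-Cre mice under saline (1.10 ± 0.229, adjusted p = 0.00264) and DCZ (0.85 ± 0.220, adjusted p = 0.0145), at 3.42 CPM ± 0.739 in Th-Cre saline and 1.61 ± 0.572 in WT saline mice. Of 9 tested genes of fatty acid handling, Acsl1, which activates long-chain fatty acids, rose (0.41 ± 0.101, adjusted p = 0.00632) and Fabp4, the adipocyte fatty acid carrier, fell (-0.29 ± 0.077, adjusted p = 0.00902) under saline, and 0 changed under DCZ.

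Of 22 tested brown adipocyte genes outside the members, 4 rose and 3 fell in Th-Cre mice under saline, and 4 rose and 5 fell under DCZ. Cox8b and Cox7a1, subunits of cytochrome c oxidase, fell with Ucp1. Cox8b averaged 460 CPM ± 56.2 in Th-Cre DCZ and 746 ± 117 in WT DCZ mice (-0.70 ± 0.130, adjusted p = 0.00235), and 464 ± 91.4 in Th-Cre saline and 790 ± 137 in WT saline mice (-0.77 ± 0.130, adjusted p = 0.00107). Cox7a1 fell by 0.58 ± 0.115 on the log2 scale under DCZ (adjusted p = 0.00331) and by 0.52 ± 0.114 under saline (adjusted p = 0.00349). Irf4, a factor that works with PGC-1α on Ucp1, rose under DCZ, with 181 CPM ± 89.6 in Th-Cre DCZ and 27.0 ± 14.6 in WT DCZ mice (2.69 ± 0.377, adjusted p = 1.83e-04). Gk, glycerol kinase, fell by 0.88 ± 0.237 on the log2 scale under DCZ (adjusted p = 0.0175), and S100b, a secreted calcium-binding protein, by 0.52 ± 0.173 (adjusted p = 0.0459). Esrrb and Esrrg, orphan nuclear receptors, rose under saline by 1.44 ± 0.225 (adjusted p = 6.16e-04) and 0.98 ± 0.208 (adjusted p = 0.00282). Adrb3, the main adrenergic receptor of adipocytes, rose under DCZ (0.82 ± 0.224, adjusted p = 0.0194), at 249 CPM ± 68.8 in Th-Cre DCZ and 148 ± 47.2 in WT DCZ mice. Ppara, a nuclear receptor for fatty acids, rose under saline (0.84 ± 0.195, adjusted p = 0.00448) and DCZ (0.88 ± 0.193, adjusted p = 0.00625).

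With sex, the genes of these lists that fell in males included 3 of 10 elongation genes. Hacd2, a dehydratase of the elongation cycle, stood at -0.47 ± 0.077 (adjusted p = 5.28e-04 by edgeR), Hsd17b12, its reductase, at -0.19 ± 0.051 (adjusted p = 0.0251) and Elovl4 at -0.72 ± 0.203 (adjusted p = 0.0297). Bmp8b, a secreted factor of brown fat, had 0.243 CPM in males against 5.96 CPM in females (-4.61 ± 0.315, adjusted p = 4.04e-10). Esrrb fell too (-1.38 ± 0.156, adjusted p = 3.70e-06), at 1.29 CPM in males against 3.38 CPM in females, as did Irf4 (-0.89 ± 0.255, adjusted p = 0.0314). Plin4 and Fabp4 were the 2 that rose, at 0.22 ± 0.058 (adjusted p = 0.0201) and 0.18 ± 0.054 (adjusted p = 0.0458).

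Whether the members vary together among animals was described within each genotype. Log2 CPM of each of 28 pairs was correlated over 12 mice, 56 relations in all, with permutation tests of 100000 resamples. After Benjamini-Hochberg adjustment 4 relations were called by Pearson's r, all positive, and 2 by Spearman's rho. No pair was called in both genotypes, and the difference between genotypes was not tested.

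In Th-Cre mice Ucp1 went with Letmd1 (r = 0.84, two-sided permutation p = 5.90e-04, adjusted 0.0238; rho = 0.85, permutation p = 9.80e-04, adjusted 0.0288). Without the 2 mice farthest from the median of Ucp1, r was 0.87. Kcnk3 also went with Letmd1 (r = 0.77, permutation p = 0.00331, adjusted 0.0463; rho = 0.79, permutation p = 0.00341, adjusted 0.0637), at r = 0.73 without the 2 farthest. The relation of Ucp1 with Fabp3 (r = 0.72, permutation p = 0.00883, adjusted 0.0989; rho = 0.70, permutation p = 0.0139, adjusted 0.128) did not pass.

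In WT mice Ucp1 went with Elovl3 (r = 0.83, permutation p = 8.50e-04, adjusted 0.0238; rho = 0.84, permutation p = 0.00103, adjusted 0.0288), at r = 0.71 without the 2 farthest mice. Otop1 went with Letmd1 (r = 0.81, permutation p = 0.00261, adjusted 0.0463; rho = 0.76, permutation p = 0.00589, adjusted 0.0825), at r = 0.87 without them. Cidea had negative r with Elovl3 in Th-Cre mice (r = -0.65, permutation p = 0.0218, adjusted 0.149; rho = -0.57, permutation p = 0.0563, adjusted 0.227) and in WT mice (r = -0.63, permutation p = 0.0293, adjusted 0.149; rho = -0.50, permutation p = 0.103, adjusted 0.283), neither of which passed. The mice of a genotype differ in sex and treatment, and these relations hold such differences. With group means and 1 sex term shared by both genotypes taken out, 1 relation was called, Ucp1 with Fabp3 in Th-Cre mice (r = 0.85, permutation p = 3.60e-04, adjusted 0.0202). The 4 relations above were not called: r was 0.71 for Ucp1 with Letmd1 and 0.62 for Kcnk3 with Letmd1 in Th-Cre mice (adjusted permutation p = 0.146 and 0.232), and 0.37 for Ucp1 with Elovl3 and 0.63 for Otop1 with Letmd1 in WT mice (adjusted permutation p = 0.853 and 0.232). Sex differences that vary with genotype remain in these values, and the permutations took no account of the fitted terms. With the 6 libraries with muscle transcripts left out 0 were called, with fewer mice. There r was 0.88 for Ucp1 with Letmd1 and 0.66 for Kcnk3 with Letmd1 in 7 Th-Cre mice (adjusted permutation p = 0.1 and 0.221), and 0.86 for Ucp1 with Elovl3 and 0.79 for Otop1 with Letmd1 in 11 WT mice (adjusted permutation p = 0.0549 and 0.1).

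**Figure D5:**
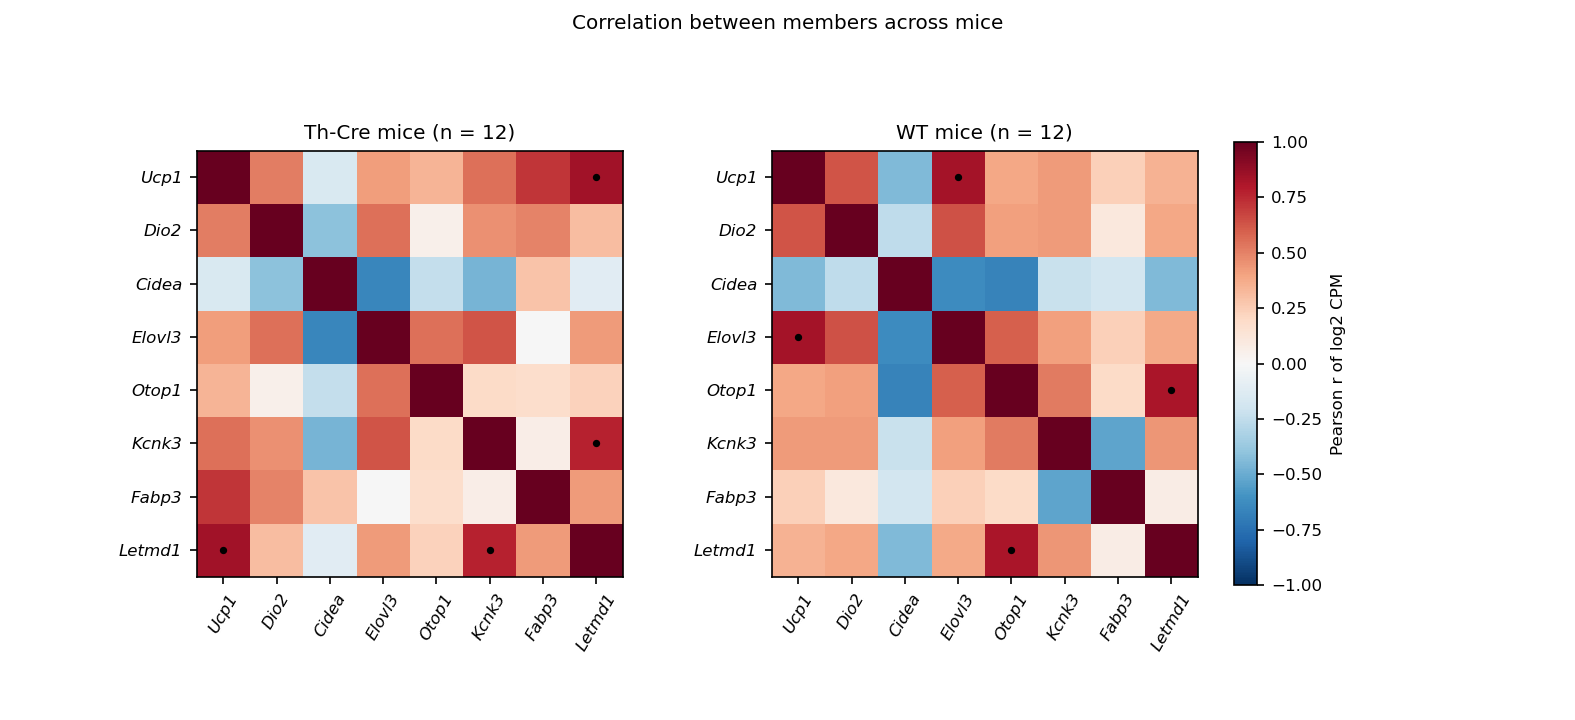
Pearson r of log2 CPM between members over 12 Th-Cre mice (left) and 12 WT mice (right), coloured from -1 (blue) to 1 (red). Dots mark the 4 relations with an adjusted permutation p under 0.05: Ucp1 with Letmd1 (0.84) and Kcnk3 with Letmd1 (0.77) in Th-Cre mice, and Ucp1 with Elovl3 (0.83) and Otop1 with Letmd1 (0.81) in WT mice.

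The tested genes most like Ucp1 in log2 CPM over all 24 libraries were Mcee (r = 0.94, with 0.92 in Th-Cre and 0.72 in WT mice), Cib2 (0.93, with 0.94 and 0.76), Ctsz (0.92, with 0.91 and 0.85), Fuom (0.92, with 0.94 and 0.56) and Comtd1 (0.91, with 0.89 and 0.57). Values over 24 libraries span the genotype differences in Ucp1 and other members, and the libraries also share depth and tissue makeup. Letmd1 was most like Dnaja3 (0.92, with 0.90 in Th-Cre and 0.91 in WT mice) and Poldip2 (0.90, with 0.94 and 0.92). Otop1 was most like Nacc2 (0.93, with 0.73 in Th-Cre and 0.92 in WT mice) and Mpv17 (0.92, with 0.65 and 0.92). Elovl3 was most like Tecpr1 (0.86) and Cux1 (0.84), with 0.85 and 0.84 within Th-Cre mice and 0.85 and 0.85 within WT mice. The leading genes for the others follow, again with r in Th-Cre and then in WT mice. For Cidea they were Cryzl2 (0.88, with 0.85 and 0.83) and Fdx1 (0.83, with 0.74 and 0.83). For Fabp3 they were Coq10a (0.88, with 0.91 and 0.56) and Srsf1 (0.87, with 0.80 and 0.59). For Kcnk3 they were Sgpl1 (0.85, with 0.80 and 0.90) and Paxip1 (0.83, with 0.70 and 0.89). For Dio2 they were Inpp1 (0.81, with 0.92 and 0.60) and Csnk1g3 (0.78, with 0.85 and 0.67).

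Neighbouring genes could share reads with some members. On the other strand Elovl3 overlaps Pitx3, with 2 to 27 counts per library against 764 to 4106 for Elovl3. Fabp3 overlaps Zcchc17 and Gm10570, with 137 to 266 and 7 to 34 counts against 4741 to 15303 for Fabp3, and its processed pseudogene Fabp3-ps1 had 0 to 8 counts. Dio2, Cidea and Kcnk3 overlap the non-coding genes Gm26512, B430212C06Rik and Gm9899 on the other strand, which were not analysed here, and Ucp1, Otop1 and Letmd1 overlap no other gene.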

How the data were processed

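The authors deposited 1 table of estimated counts by gene symbol, holding whole numbers, and it was tested without change. Counts of reads and the percent of reads that pseudoaligned (84.2 to 88.7) were also deposited by the authors. The tool was kallisto 0.44.0 and the build GRCm38.p6, per the submitters' processing notes. The sources used here do not give the transcript set, how transcripts were summed to genes or whether strand was used, so overlapping genes or close copies could share reads. Column names were matched to samples through the labels, and 0 columns were left unmapped. The genotype-wise normalized tables were not used, because each was scaled within 1 genotype.

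Counts were filtered with filterByExpr by group and scaled by TMM in edgeR 4.0.16 (R 4.3.3). One quasi-likelihood model with 4 group means plus sex was fitted over all 24 libraries, with Benjamini-Hochberg adjustment over 13129 genes, and an adjusted p under 0.05 is called changed. Every adjusted p without another method named is from this edgeR test. The SE was obtained from the fold change and its F statistic, and intervals are at 95%. Log2 CPM for correlations used a prior count of 2. Correlations were tested by seeded permutations in numpy 2.4.6, with ranks from scipy 1.17.1. Scripts were tested on simulated data. Gene positions and exon lengths are from GENCODE M21 on GRCm38.

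The members, gene lists and comparisons were chosen with earlier results of these data known. Named genes were all 8 members, fixed family relatives, the up to 4 listed pathway genes with the largest log2 fold change in each direction among those called in a comparison, further called genes of those lists chosen after their values were seen (Ncoa1, Plin4, Lipe, Acsl1, Adrb3, Ppara, Hacd2, Hsd17b12, Slc25a30), and the 5 genes most correlated with Ucp1 and 2 with each other member. Alternatives were scaling by RLE size factors, no filter, no sex term, DESeq2 1.42.0, no mitochondrial genes, no libraries with muscle transcripts, each sex alone, each genotype alone and each library left out. Fits by sex within genotype, and the pathway counts without libraries with muscle transcripts, were added after seeing the data. Each library is a separate mouse per the labels. The result of 1 marker list is not reported here.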

Additional observations from a re-analysis of the deposited data

Results flagged for a closer look

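Each member was examined for a mouse far from the rest of its group of 6, in 32 groups, of which chance flags about 1 in 20. In Th-Cre saline mice Elovl3 was lowest in DN2087, at 85.7 CPM against 113 to 129 CPM in the other 5 mice, and this gap was 0.677 of the group's whole range in log2 CPM. DN2087 is a male and 1 of the libraries with muscle transcripts. In WT saline mice Letmd1 was highest in WT2, at 623 CPM against 471 to 503 CPM in the other 5, a gap of 0.767 of the range in log2 CPM. Without WT2 the log2 fold change of Th-Cre over WT over both treatments was 0.14 (adjusted p = 0.0184 by edgeR with Benjamini-Hochberg adjustment).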

How the results depend on the processing

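No value reversed while called under any alternative. Of 1784 member values in the comparisons of treatment, genotype and sex 28 lost their call and 23 gained one, and of 1120 in the comparisons by sex within genotype, chosen after seeing the data, 1 lost and 18 gained. Among these, 54 and 26 values changed sign without a call on either side. Members called under saline in Th-Cre against WT mice numbered 0 without the libraries with muscle transcripts and 0 in females alone, against 3 as reported. Under DCZ they numbered 1 without those libraries, 1 in males alone and 0 in females alone, against 2, and over both treatments 1 in females alone, against 4. Leaving out each library gave 3 to 4 under saline, 1 to 2 under DCZ, 4 to 5 over both, 3 to 5 for sex and 0 for each DCZ comparison and the interaction. Relations called between members numbered 1 with group means and a sex term shared by both genotypes taken out and 0 without the libraries with muscle transcripts, against 4. The subsets hold fewer mice, with 3 against 3 within a sex. No scaling moved the median of all genes by over 0.1. No paired analysis was possible because the mouse numbers of the groups compared are not shared. With 6 mice a group, the 95% intervals for DCZ reached 0.66 on the log2 scale for Dio2 and 0.52 for Elovl3 in Th-Cre mice, so values up to these lie within the intervals.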
